A study of Homo sapiens with 12 samples.

Results

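The dose series examined here is the combination arm of a co-culture study of immune checkpoint antibodies: 3 libraries of 12, in which an anti-PD1 antibody (MK3475) and an anti-LAG3 antibody (MK4280) were given together at 0.01, 0.1 or 1 µg/ml of each. The 3 libraries were taken by their treatment labels, and no measured value was used to choose them. Jurkat, a human T cell leukaemia line labelled as carrying LAG3 and PD1, was cultured for 24 h with Raji, a B cell line from a human Burkitt lymphoma that here carries PDL1. The Raji cells had been loaded with 100 ng/ml of the superantigen SED, and cells of several wells were pooled into 1 library per condition. The other 9 libraries were isotype antibody, anti-LAG3 with isotype, and anti-PD1 with isotype, each at the same 3 doses. All 4 arms held both lines and the superantigen. No arm without superantigen and no untreated dose was analysed here.

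A superantigen bridges MHC class II on a B cell and the T cell receptor (TCR) on a T cell, so that the receptor fires without a specific peptide. PD1 and LAG3 are inhibitory receptors of T cells: PD1 is engaged by PDL1, and LAG3 by MHC class II among other ligands. Antibodies that block them are used to release T cells from this inhibition, and early genes such as EGR1 and CD69 are widely read as a record of TCR signalling.

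Depth was 28709956, 26980628 and 25808464 counts at 0.01, 0.1 and 1 µg/ml of the combination, within the range of 23593973 to 36581754 over all 12 libraries. The mean log2 level of 24 Jurkat T cell markers minus that of 28 Raji B cell markers was -1.68, -1.73 and -1.66 at those doses, and -1.82 to -1.52 over the 12 libraries. Of 16 markers of other blood cells, 1 passed the filter on low counts, NCAM1, and their summed level was 2.07 to 2.31 CPM. The RNA of both lines was read together, so fewer cells of a line and less RNA per cell cannot be told apart. A level below is in CPM (counts scaled to library size with TMM factors), a slope is the log2 change per 10-fold dose with its standard error (SE), and no isotype value was subtracted. The low step is the log2 change from 0.01 to 0.1 µg/ml and the high step that from 0.1 to 1 µg/ml. Both share the library at 0.1 µg/ml, so an error in it enters them with opposite signs. A gene was called at an adjusted p under 0.05 in the quasi-likelihood test of edgeR, adjusted by Benjamini-Hochberg over 15535 genes, and every adjusted p below is from it. Since each condition has 1 library, p-values measure the scatter of libraries about straight dose lines, not that of repeated cultures.

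The EGR1 promoter is shown because EGR1 was listed for display by name. It also had the smallest slope p of all the genes that rose. The 250 bases before its start (RefSeq, GRCh38.p14, chr5:138465229-138465478, plus strand) hold 2 CArG boxes, the site of serum response factor, at positions -105 and -83 from the start, in capitals.
EGR1: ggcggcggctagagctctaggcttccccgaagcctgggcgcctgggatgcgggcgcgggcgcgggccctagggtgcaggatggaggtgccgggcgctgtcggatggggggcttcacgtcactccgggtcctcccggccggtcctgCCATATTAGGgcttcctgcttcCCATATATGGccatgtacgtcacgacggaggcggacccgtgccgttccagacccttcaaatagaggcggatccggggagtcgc
A CArG box on either strand was found in 1.29% of the 27305 promoters of the RefSeq table (250 bases before to 50 after each start). The motifs TGACGTCA (CRE, in 1.98% of promoters), TGANTCA (AP-1, 7.76%), GCGTGGGCG (EGR, 0.784%), CCGGAAGT (ETS, 4.44%) and CACGTG (E-box, 7.43%) were searched on both strands and were not in these letters. The promoter of HIST1H1B, an H1 linker histone, is also shown (H1-5 in RefSeq, chr6:27867589-27867838, minus strand). HIST1H1B was listed for display because it had the largest called fall among the genes described. Its promoter held none of the 6 motifs, and no base is in capitals. With 1 promoter per direction, no link between a motif and a direction of change can be read. The call of HIST1H1B ended without either end of the combination series (below).
HIST1H1B: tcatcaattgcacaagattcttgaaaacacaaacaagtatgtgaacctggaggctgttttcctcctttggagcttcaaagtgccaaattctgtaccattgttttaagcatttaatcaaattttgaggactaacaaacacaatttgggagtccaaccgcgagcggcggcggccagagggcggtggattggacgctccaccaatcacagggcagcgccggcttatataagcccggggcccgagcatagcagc
The table held a promoter for 69.4% of the genes tested, 71.1% of those that rose and 70.7% of those that fell. The rest had no entry, and motif shares were not compared between these sets.

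Raising the dose of the combination changed 664 genes: 329 rose (2.12% of the 15535 tested) and 335 fell (2.16%). The median slope was 0.29 among those that rose and -0.31 among those that fell, against -0.00 over all genes tested. Only 57 of the 664 moved by more than 1 log2 unit per 10-fold dose, 48 of them upward. In the isotype series, tested the same way, 115 genes rose (0.74%) and 18 fell (0.116%). Of those 133 genes 27 were also called with the combination, next to 664 of all 15535 genes tested. Only 2 of the 27 ran in the same direction in both series, and the rest ran in opposite directions. The count of 664 rested on the ends of the combination series. It was 73 without the combination library at 1 µg/ml and 125 without that at 0.01 µg/ml, which leaves a line through 2 libraries. DESeq2 called 284, 167 upward and 117 downward, and a line on dose itself in place of log10 dose called 338. In all 12 fits that left out 1 library, 37 of the 664 genes were called, 30 upward and 7 downward.

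Of the receptors and ligand that define the co-culture, PDCD1 and CD274 moved little and LAG3 was too low to be tested. PDCD1, which encodes PD1, had 220, 195 and 215 CPM at 0.01, 0.1 and 1 µg/ml, with a slope of -0.02 ± 0.04 (adjusted p = 0.887). CD274, which encodes PDL1, had 85.1, 94.9 and 97.7 CPM and a slope of 0.10 ± 0.04 (adjusted p = 0.155). LAG3 had 1, 1 and 0 counts, and at most 0.0706 CPM in any of the 12 libraries. The label gives Jurkat as carrying LAG3 and PD1. Why so few reads were counted on the LAG3 gene was not tested, and no direction below is drawn from LAG3. At 1 µg/ml the floor of 3 counts was 0.117 CPM, so a change in LAG3 RNA was not detectable at this depth. IL2, the T cell growth factor gene, had 0, 0 and 4 counts and IFNG 0, 2 and 4 counts. These 3 genes were too low to be tested, and their 95% Poisson intervals at 1 µg/ml reached 0.144 CPM for LAG3 and 0.401 CPM for IL2 and IFNG, which covers counting error only.

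Of 22 tested immediate early transcription factors, which TCR signals switch on, 10 rose with dose, none fell and 12 were not called. Each list count here and below stands beside 2.12% of all genes tested that rose and 2.16% that fell. EGR1 (chr5:138465490-138469315, plus strand, GENCODE 29 on GRCh38) stood at 19.7, 41.2 and 82.4 CPM from the lowest to the highest dose. The isotype libraries held 18.55, 16.8 and 18.2 CPM. Its slope was 1.03 ± 0.05 (adjusted p = 5.22e-13), and its low step of 1.07 ± 0.11 and high step of 1.00 ± 0.10 were each called. So its level climbed by about the same factor at each 10-fold dose, and only the library at 0.01 µg/ml lay near the isotype series. EGR3, of the same zinc finger family, stood at 1.46, 6.32 and 17.2 CPM, with a low step of 2.11 ± 0.26 and a high step of 1.44 ± 0.18. NR4A3, an orphan nuclear receptor induced by antigen (chr9:99821855-99866891, plus strand), stood at 1.91, 5.39 and 39.4 CPM and had the largest slope of these factors, 2.37 ± 0.16 (adjusted p = 4.25e-06). Its high step of 2.87 ± 0.20 was above its low step of 1.49 ± 0.28, but the difference was not called. EGR2 had a slope of 1.34 ± 0.13, and its low step was not called (adjusted p = 0.128). NR4A1 stood at 7.40, 16.0 and 45.9 CPM, and its high step was called (adjusted p = 0.0457) while its low step was not (adjusted p = 0.299). IER3, a stress and immediate early gene, went from 8.41 to 15.2 and 29.02 CPM.

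The other immediate early factors that rose were JUND, FOS, IER2 and EGR4, with slopes of 0.34, 1.26, 0.21 and 0.82. The median slope of the list was 0.08. Without the library at 1 µg/ml 4 members were called, and without that at 0.01 µg/ml 8.

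**Figure D1:**
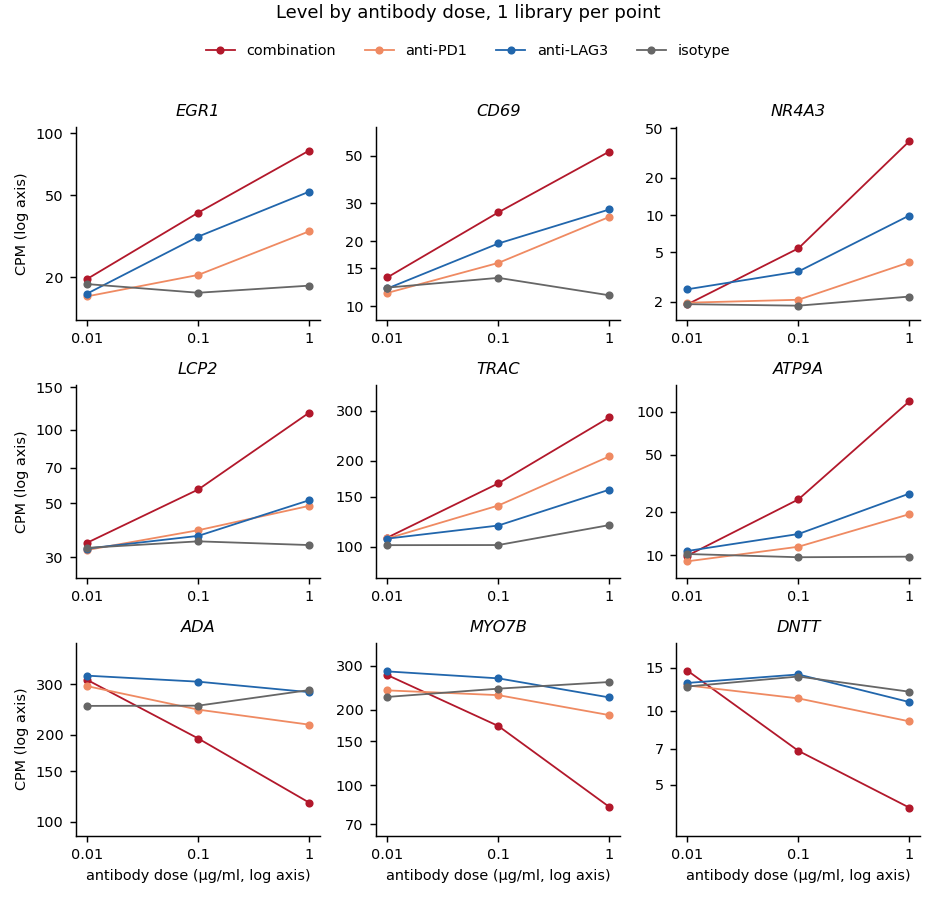
Level in CPM (log axis) by antibody dose (log axis) of 9 genes in the combination, anti-PD1, anti-LAG3 and isotype arms, 1 library per point and no error bars since each condition has 1 library. EGR1 climbs from 19.7 to 82.4 CPM with the combination while the isotype points stay between 16.8 and 18.55 CPM, and ADA goes from 310 to 117 CPM.

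Of 23 genes of feedback on EGR, MAP kinase and calcium signals, 8 rose, 1 fell and 14 were not called, with a median slope of 0.14. DUSP2, a nuclear phosphatase of MAP kinases, stood at 88.8, 122 and 170 CPM, with equal steps of 0.46 ± 0.08 and 0.48 ± 0.08. NAB2, a corepressor bound by EGR proteins, rose by 0.42 ± 0.05 per 10-fold dose. NFATC1, a calcium-regulated factor, stood at 62.4, 69.1 and 92.9 CPM, and only its high step was called (0.43, adjusted p = 0.00683). The member that fell was RCAN1, an inhibitor of calcineurin, at -0.21 ± 0.06 (adjusted p = 0.0426). Its call ended without either end of the combination series (adjusted p = 0.575 and 0.87), by DESeq2 and with the marker covariate. The list had 1 upward call without the library at 1 µg/ml, and 2 without that at 0.01 µg/ml.

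Of 22 negative regulators of TCR signalling, 10 rose and none fell, with a median slope of 0.15. SH2D2A, a T cell adaptor that binds LCK, stood at 5.21, 11.2 and 27.0 CPM and rose with a slope of 1.198 ± 0.09 (adjusted p = 9.20e-10), with both steps called. CD5 and CD6, scavenger receptor proteins that dampen the TCR, rose by 0.55 ± 0.05 and 0.50 ± 0.05. UBASH3B, a phosphatase of the TCR pathway, stood at 87.7, 125 and 150 CPM (low step 0.51, adjusted p = 3.02e-04, and high step 0.27, adjusted p = 0.0868). SLA, an adaptor that promotes loss of TCR chains, stood at 38.1, 40.05 and 68.1 CPM (high step 0.77, adjusted p = 2.50e-06). The difference between the steps was not called for UBASH3B or SLA (adjusted p = 0.998 and 0.642). The other members that rose were PTPN7, RASAL3, SIT1, DGKA and LAX1, with slopes of 0.18 to 0.36. Without the library at 1 µg/ml 3 members were called, and without that at 0.01 µg/ml 6.

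Genes of the TCR machinery itself went in both directions. Of 20 tested, 4 rose and 4 fell, with a median slope of -0.00. LCP2, which encodes the SLP-76 adaptor (chr5:170246237-170298227, minus strand), had 34.4, 56.9 and 118 CPM, and the isotype libraries 32.8, 34.9 and 33.7 CPM. It rose by 0.90 ± 0.05 (adjusted p = 1.35e-12), with a low step of 0.72 ± 0.09 and a high step of 1.05 ± 0.09, both called. TRAC, which encodes the alpha chain's constant region, rose by 0.70 ± 0.04, from 108 to 167 and 284 CPM. CD28, the main costimulatory receptor, stood at 66.7, 81.8 and 140 CPM. GRAP2, an adaptor that partners LCP2, went the other way, at 36.8, 28.45 and 19.75 CPM (slope -0.44 ± 0.05, adjusted p = 9.80e-07). THEMIS, a regulator of thymocyte signalling, fell by 0.39 ± 0.05 and the CD3 chains CD3E and CD3G fell by 0.21 ± 0.04 and 0.20 ± 0.04. So within 1 receptor complex TRAC rose while CD3E and CD3G fell. Neither step of CD3E or CD3G was called by itself. The calls of CD3E and CD3G ended without the library at 1 µg/ml and also without that at 0.01 µg/ml, while TRAC was called in each of these fits. Without the library at 1 µg/ml 3 members of the list were called upward and 1 downward, and without that at 0.01 µg/ml 4 and 1.

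Surface receptors of activated T cells formed the list with the largest median slope, 0.48 against -0.00 over all genes. The filter kept 16 of 24 listed members, of which 10 rose and none fell. Members near the floor at 0.01 µg/ml, such as CRTAM, had little room to fall. CD69 stood at 13.6, 27.2 and 52.1 CPM, with a slope of 0.97 ± 0.06 (adjusted p = 7.00e-12) and near equal steps of 1.00 and 0.94. CRTAM, an adhesion receptor of activated T cells, had 0.3475, 1.625 and 8.45 CPM (10, 44 and 216 counts) and a slope of 2.32 ± 0.18, whose call ended without the library at 1 µg/ml (adjusted p = 0.0676). CD226, an activating receptor for nectin-like ligands, stood at 7.89, 12.8 and 25.2 CPM. IL2RA, which makes the high-affinity receptor for interleukin-2, had 1.32, 2.25 and 8.645 CPM, with a low step of 0.77 that was not called (adjusted p = 0.509) and a high step of 1.94 that was (adjusted p = 8.19e-05). CD40LG, the ligand of CD40, and HAVCR2, which encodes TIM-3, had high steps of 2.11 and 1.92 and low steps of 0.67 and 0.09 that were not called. ICOS, CD96 and CD82 had slopes of 1.57, 0.41 and 0.25. The median low step of the list was 0.28 and the median high step 0.82, with 3 and 9 members called. A called step beside one that was not does not show that the steps differ. Without the library at 1 µg/ml 2 members kept a called slope, and without that at 0.01 µg/ml 9.

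Secreted and killing molecules were low, and the changes that passed were upward. The filter on low counts kept 21 of 28 listed cytokine genes and 11 of 13 cytotoxic genes. XCL1 and XCL2 passed it only through antibody libraries in which they were higher. At 3 and 0 counts at 0.01 µg/ml they had no room to fall, so the absence of falls among such genes is no result. Of 21 tested cytokines, chemokines and their receptors 4 rose and none fell. XCL1, the chemokine lymphotactin (chr1:168576473-168582077, plus strand), had 3, 21 and 383 counts, or 0.104, 0.776 and 15.0 CPM. The ratio of the highest to the lowest dose was 144, with a 95% counting interval of 48.8 to 699.9, and its called slope of 3.99 ± 0.23 was not called without the library at 1 µg/ml (2.84, adjusted p = 0.263). Its neighbour XCL2 had 0, 22 and 175 counts and was at least 65.7-fold higher at 1 than at 0.01 µg/ml, against a floor of 3 counts in the lower library. XCL1 and XCL2 are near-identical, and how reads shared between them were counted is not given in the sources used here. IL16 and IL21R rose by 0.25 and 0.15. The list had 1 call without the 1 µg/ml library, and 2 without that at 0.01 µg/ml. Of 11 cytotoxic and death-ligand genes 4 rose. GZMB, granzyme B, had 0.799, 1.77 and 6.69 CPM, and its call ended without the library at 1 µg/ml (adjusted p = 0.421). SRGN, PRF1 and TNFSF10 rose by 0.38, 0.41 and 0.55, and TNFSF10, which encodes TRAIL, did so with a low step of -0.18 and a high step of 1.21. Without the library at 1 µg/ml none of the 4 was called and the slope of TNFSF10 turned to -0.18.

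Of 15 tested genes of immature thymocytes and V(D)J recombination, a stage that leukaemic T cell lines can resemble, 9 fell with dose, none rose and 6 were not called. The median slope was -0.37. ADA, adenosine deaminase, had the smallest p of all 15535 genes, with 310, 194 and 117 CPM and a slope of -0.70 ± 0.03 (adjusted p = 3.77e-13). Its steps of -0.67 and -0.74 were each called. DNTT, the terminal transferase that adds bases at V(D)J junctions, had 14.6, 6.87 and 4.03 CPM, next to 12.6, 13.8 and 12.0 CPM in the isotype libraries. It fell by 1.09 at the low step (adjusted p = 7.10e-04), while its high step was -0.77 (adjusted p = 0.104), and its slope was not called without the library at 0.01 µg/ml (adjusted p = 0.0997). RAG2 and RAG1, the recombinase pair, stood at 6.71, 3.14 and 1.88 CPM and at 4.59, 3.18 and 1.84 CPM, with slopes of -0.95 ± 0.12 and -0.64 ± 0.14. ARPP21, a thymocyte-enriched phosphoprotein gene, fell by 0.50 ± 0.06. CD1D, CD1E and CD1A, lipid-presenting molecules, fell by 0.39, 0.36 and 0.22, and AEBP1 fell by 0.37. All of the 9 were lower at each higher dose. Without the library at 1 µg/ml 3 members were called, and without that at 0.01 µg/ml 2.

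T lineage transcription factors were split, with 4 of 30 up and 6 down, beside 2.12% up and 2.16% down over all genes tested. IKZF2, which encodes Helios, stood at 144, 186 and 250.5 CPM, TOX at 73.5, 82.2 and 106 CPM, and ID3 and LEF1 rose by 0.24 and 0.11. BCL11B, a keeper of T cell identity, stood at 56.6, 47.5 and 25.0 CPM (slope -0.57 ± 0.08, adjusted p = 0.00206). NOTCH3, an oncogenic receptor of T cell leukaemia, stood at 11.5, 9.01 and 4.58 CPM. Both had a called high step, of -0.93 and -0.98, and a low step that was not called. SATB1, ETS2, TCF12 and RUNX1 fell by 0.29, 0.20, 0.16 and 0.17. The calls of BCL11B and NOTCH3 ended without the library at 1 µg/ml (adjusted p = 0.342 and 0.522), as did those of IKZF2, TOX, ID3, SATB1 and ETS2. The list then had 0 calls upward and 1 downward, and without that at 0.01 µg/ml it had 2 and 3. Of 20 trafficking genes, SELPLG, CD99 and CD47 fell by 0.51, 0.27 and 0.12 and CORO1A rose by 0.12. The call of CORO1A ended without either end library, and 2 and 0 of the falls were called without the 1 and the 0.01 µg/ml library.

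**Figure D2:**
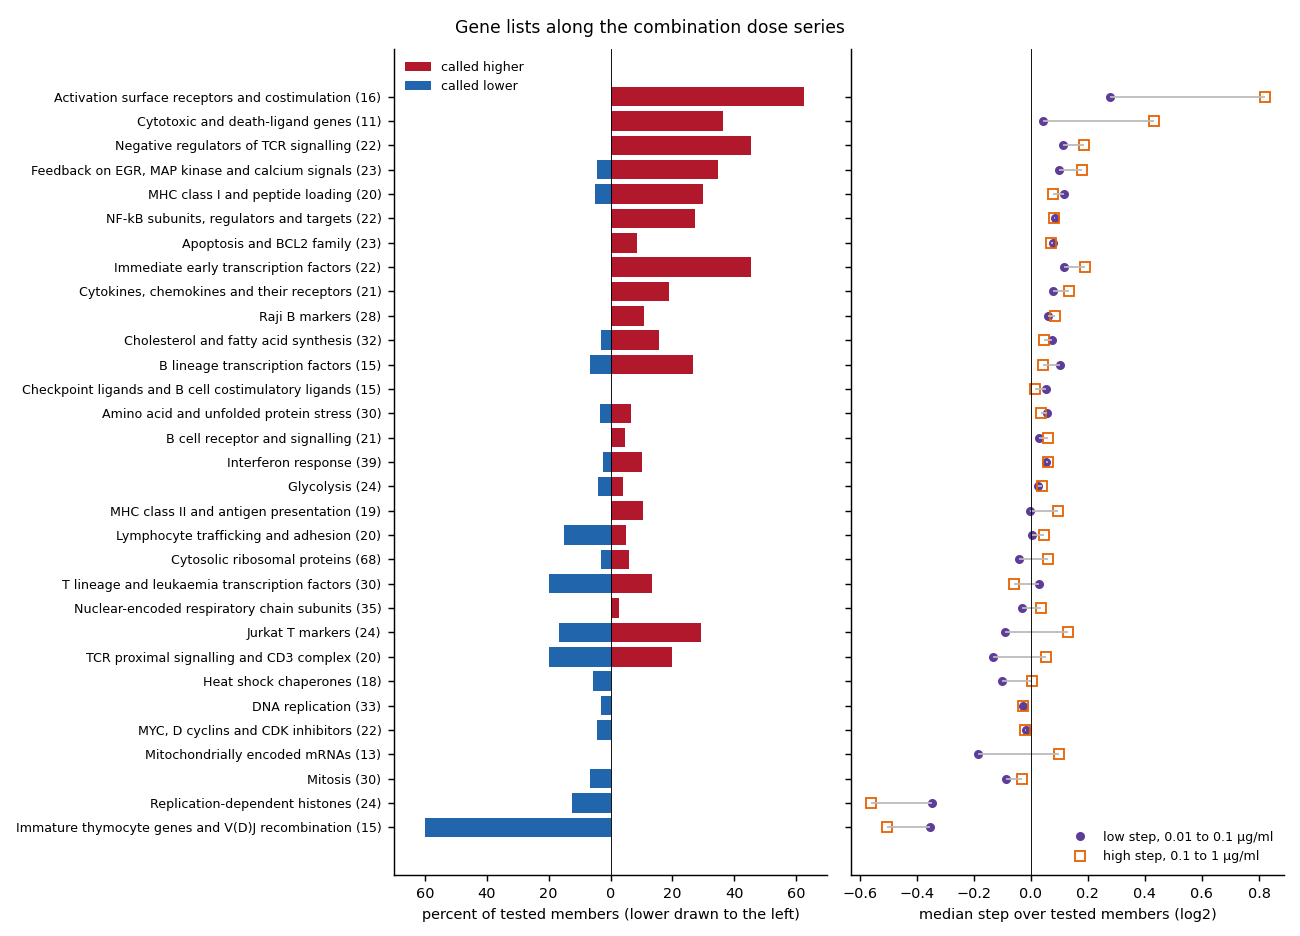
Left, percent of tested members of each gene list (number in brackets) with a called slope, higher to the right and lower to the left. Right, median low step (dots) and median high step (squares) over the tested members in log2, where activation receptors have medians of 0.28 and 0.82 and thymocyte genes -0.35 and -0.50.

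Genes known mainly from B cells and from antigen presentation moved little. The shares over all genes tested were 2.12% up and 2.16% down. BACH2, a repressor expressed in B cells and in resting T cells, stood apart at 20.9, 32.55 and 52.9 CPM (slope 0.67 ± 0.05, adjusted p = 9.20e-10). Of 15 B lineage factors 4 rose and 1 fell: BACH2, BHLHE40, AFF3 and SPIB at 0.67, 0.66, 0.17 and 0.16, and BCL11A at -0.15. Without either end library 1 rise and 0 falls of these were called. Of 21 genes of the B cell receptor and its signalling 1 rose, CD79B by 0.11, and of 28 Raji B cell markers 3 rose and none fell, with 0 calls in either list without either end library. MHC class I and its peptide loading had 6 of 20 up and 1 down. HLA-B and HLA-C stood at 682 and 348 CPM at the lowest dose and at 871 and 456 CPM at the highest, with slopes of 0.18 and 0.19. PSMB10, HLA-E and TAP1 rose by 0.21, 0.14 and 0.13, and ERAP2, a peptide-trimming enzyme, fell by 0.27. The HLA genes are close copies, and their split of reads is uncertain. MHC class II, the ligand of LAG3 and the anchor of the superantigen, had 2 of 19 up, CTSS and HLA-DQB1, at 0.16 and 0.12. No called slope remained in either MHC list without the library at 1 µg/ml or without that at 0.01 µg/ml.

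NF-kB subunits, regulators and targets had 6 of 22 up and none down, each by little: TNFAIP3, a feedback inhibitor, by 0.18, and TRAF1, NFKB1, NFKB2, RELB and REL by 0.13 to 0.15. None of the 22 had a called step, and no slope was called without either end library. Of 39 interferon response genes 4 rose and 1 fell, where 2.12% of all genes tested rose and 2.16% fell. GBP2, a guanylate-binding protein, had 4, 18 and 97 counts (0.139, 0.665 and 3.79 CPM), and GBP5 had 0.730, 1.03 and 3.79 CPM. IRF7, a regulator of interferon genes, rose by 0.45, and LAMP3, a lysosomal protein of maturing antigen-presenting cells, fell by 0.49. None of the 4 rises was called without the library at 1 µg/ml (adjusted p = 0.395 for GBP2 and 0.857 for GBP5, whose slope was then 0.50), and without that at 0.01 µg/ml 2 were, with IRF7 lost in both. The call of LAMP3 ended without that at 0.01 µg/ml. Of 15 checkpoint and costimulatory ligands none was called by edgeR's quasi-likelihood test (2 at an unadjusted p under 0.05) or by DESeq2, which had 0. The smallest p was that of CD70, the ligand of CD27, at 0.11 ± 0.04 (adjusted p = 0.104). Of 23 apoptosis genes 2 rose and none fell, TP53INP1, a p53 target, by 0.41, with 0 calls without either end library.

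Among growth and metabolism genes most called changes were small, with larger falls among histones and in HSPB1. Of 22 genes of MYC, D cyclins and CDK inhibitors 1 fell: CDK6, a partner of D cyclins, at 1043, 837 and 703 CPM (slope -0.29 ± 0.03, adjusted p = 1.47e-06), a call that ended without the 0.01 µg/ml library (adjusted p = 0.108). The isotype libraries went the other way, with 866, 1015 and 1073 CPM. DNA replication had 1 of 33 down, RRM2 by 0.11, and mitosis 2 of 30, CENPE and BUB1B by 0.20 and 0.12. The share that fell over all genes tested was 2.16%, and none of the 3 genes was called without either end library. Slopes were above 0 in 7 of the 33 replication and 2 of the 30 mitosis genes, against 7672 of all 15535. Replication-dependent histones had a median slope of -0.35, with 3 of 24 called, all down, and 0 without either end library. Only 2 of the 24 had a slope above 0, and the lowest slope was -1.51. HIST1H1B had 40, 16 and 7 counts (slope -1.18 ± 0.30, adjusted p = 0.0210), and its call also ended by DESeq2 and on linear dose. Its adjusted p was 0.4855 without the library at 1 µg/ml and 0.855 without that at 0.01 µg/ml. HIST1H1E and HIST1H4C fell by 0.94 and 0.32. Most of these mRNAs lack a poly(A) tail. The labels give polyA RNA as the molecule and total RNA in the extraction, and the part of RNA selection in the histone values was not tested. Cholesterol and fatty acid synthesis had 5 of 32 up and 1 down, with HMGCS1, FDPS, MSMO1 and ACAT2 up by 0.12 to 0.19 and FADS1 down by 0.22. Of 24 glycolysis genes 1 rose, SLC2A3, a glucose transporter, by 0.27, and 1 fell, ENO2 by 0.27. Of 30 genes of amino acid and unfolded protein stress 2 rose, ASNS and DDIT4 by 0.14 and 0.17, and 1 fell, ATF4 by 0.12. Among 18 heat shock chaperones HSPB1 fell, by 0.44. By comparison, 2.12% of all genes tested rose and 2.16% fell. None of the metabolic and stress genes named here was called without either end library.

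Housekeeping lists gave the level of movement to read these against. Of 68 cytosolic ribosomal proteins 4 rose and 2 fell, while in the isotype series 14 rose. Over all genes tested 2.12% rose and 2.16% fell with the combination, and 0.74% rose with isotype. RPL37 stood at 782, 627 and 608 CPM with the combination and at 578, 652.5 and 860.2 CPM with isotype, so that the library highest for it was the lowest dose in one series and the highest dose in the other. RPS24 had the same pattern, with 1062, 849 and 843.5 CPM against 835, 871 and 1133 CPM. Of 35 nuclear respiratory chain subunits 1 rose, NDUFB2 by 0.18, and 8 rose with isotype. Of 13 mitochondrially encoded mRNAs 0 were called by edgeR's quasi-likelihood test (0 at an unadjusted p under 0.05) and 0 by DESeq2. Of the calls in the ribosomal and respiratory lists 1, a fall of a ribosomal protein, was made without the 1 µg/ml library and 0 without that at 0.01 µg/ml. The smallest p among the mitochondrial mRNAs was that of MT-ND4L, at 802, 686 and 713 CPM.

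The largest slopes, taken among called genes with a mean of at least 5 CPM and both steps in 1 direction, added genes outside the lists. DMBT1, a secreted scavenger receptor glycoprotein, had 0.626, 3.84 and 12.0 CPM (slope 1.98 ± 0.16). ATP9A, a phospholipid flippase of endosomes, had 9.94, 24.5 and 118 CPM, next to 10.2, 9.69 and 9.77 CPM in the isotype libraries (slope 1.86 ± 0.13, adjusted p = 6.44e-04). HDC, histidine decarboxylase, had 1.60, 5.10 and 15.8 CPM, SCG2, a granin of secretory granules, 1.46, 4.36 and 11.6 CPM, and ENPP1, an ectonucleotidase, 5.67, 13.8 and 35.9 CPM. The isotype libraries lay between 1.48 and 1.87 CPM for SCG2, and between 1.74 and 1.86 CPM for HDC, near the combination library at 0.01 µg/ml.

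Among the falls, MYO7B, an unconventional myosin (chr2:127535802-127637729, plus strand), had 275, 172 and 82.2 CPM, next to 225, 243 and 258 CPM in the isotype libraries (slope -0.86 ± 0.05, adjusted p = 5.82e-10). PMEPA1, a feedback inhibitor of TGF-beta signalling, had 75.7, 52.9 and 26.1 CPM, and CTSG, cathepsin G, 31.0, 20.7 and 10.7 CPM. TSHR, the thyrotropin receptor, had 13.8, 9.57 and 3.755 CPM, and its call ended without the library at 1 µg/ml (adjusted p = 0.321). XYLB, a xylulokinase, and RP11-678G14.3 fell by 0.68 and 0.69. PTMAP4, a pseudogene of prothymosin alpha, fell by 0.68 while its isotype slope was 0.57, and reads shared with its parent gene make its level uncertain. The calls of PTMAP4, XYLB and RP11-678G14.3 ended without the library at 0.01 µg/ml (adjusted p = 0.183, 0.733 and 0.42), and that of RP11-678G14.3 also without the library at 1 µg/ml (adjusted p = 0.0676).

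The shape of the series was read from the steps. At the low step 39 genes rose (0.251%) and 33 fell (0.212%), and at the high step 92 rose (0.592%) and 31 fell (0.2%). Both steps were called for 38 genes, all in the same direction. With a covariate for the marker difference between T and B cells the low step had 0 calls (748 at an unadjusted p under 0.05) and the high step 23, and DESeq2 called 24 and 49. Of the 329 genes that rose over the series 97.6% had both steps upward, and of the 335 that fell 97.3% had both downward, against 43.2% with both steps in the direction of the slope over all genes tested. That share is tied to the choice of the genes by their slope and is given as a description. Median steps were 0.25 and 0.31 for the genes that rose and -0.31 and -0.28 for those that fell. The high step was the larger in 55.3% of the genes that rose and in 48.7% of those that fell, against 48.5% over all genes tested.

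**Figure D3:**
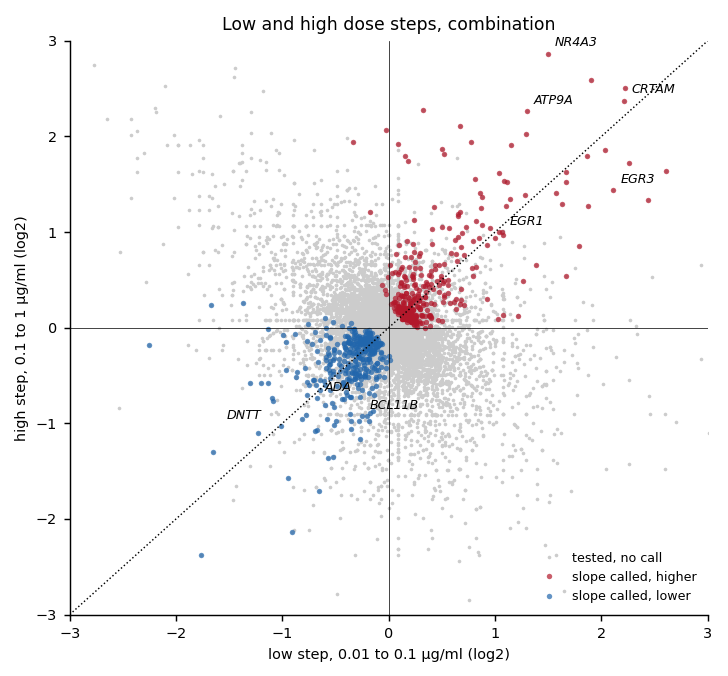
Low step against high step in log2 for the genes tested, with called rises in red, called falls in blue and the line of equal steps dotted. Most called genes lie in the 2 quadrants where both steps share a sign, and 26 genes, 6 of them called, lie beyond the axis limit of 3 log2 units and are not drawn.

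No gene had steps that differed: edgeR's quasi-likelihood test of the high minus the low step called 0 of 15535 (0%). At an unadjusted p under 0.05 there were 642, 267 with the high step above the low and 375 below. DESeq2 also called 0, with 68 at that unadjusted p. The SE of the difference had a median of 0.23 log2 over all genes, so a modest bend was not detectable in this design. Without any 1 of the isotype libraries 1 gene was called, RN7SL2, a signal recognition particle RNA, at -0.96 to -0.95. The genes with the smallest p, chosen after their values were seen, are given as examples, and none passed. They were not the largest differences: that of NR4A3, for one, was 1.37 ± 0.43. SLA (above) had a high step larger than the low by 0.69 ± 0.15, and ATP9A by 0.97 ± 0.22. CHI3L2, a chitinase-like protein gene, stood at 151, 154 and 228.5 CPM. BCL11B fell mostly at the high step, by -0.68 ± 0.16 beyond the low step, and so did FBLN2, a matrix fibulin, at 53.9, 46.7 and 24.6 CPM. GYPC, a membrane sialoglycoprotein gene, went from 58.5 to 38.7 and 41.35 CPM, and with isotype from 42.0 to 45.6 and 54.3 CPM. GNG5 and MYB were likewise lowest at 0.1 µg/ml, at 84.9, 66.2 and 77.1 CPM and at 125, 99.6 and 115 CPM.

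A called step without a called slope was found for 6 genes at the low step and 6 at the high step. At the low step these were MT-TP, RPL36A, GNG5 and MYB, with low steps of -0.48, -0.40, -0.36 and -0.32 and positive high steps, and TTC24 and SDF2L1, with low steps of 0.95 and 0.33 and high steps of -0.18 and -0.06. At the high step APP, GZMA, PLCH1 and ITGA5 rose, and CEBPE and RNF213 fell. GZMA, granzyme A, stood at 17.6, 18.6 and 33.7 CPM, and its isotype levels were 15.7, 17.7 and 16.5 CPM. These genes were picked after their values were seen.

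**Figure D4:**
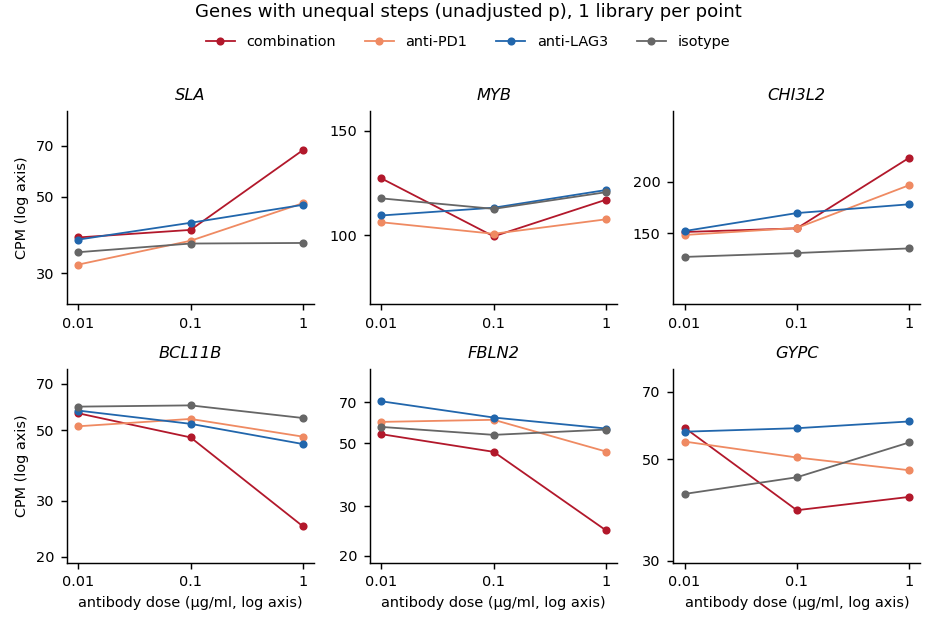
Level in CPM (log axis) by dose (log axis) in the 4 arms for 6 of the genes with the smallest unadjusted p for unequal steps, 1 library per point. SLA goes from 38.1 to 40.05 and 68.1 CPM with the combination and BCL11B from 56.6 to 47.5 and 25.0 CPM, and none of the differences between steps passed adjustment.

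Slopes were set beside the other arms only to show where the combination differed. Against isotype, 284 genes had a higher slope (1.83%) and 435 a lower one (2.8%), and 390 of the 664 genes called within the combination were among them. Without the isotype library at 1 µg/ml 34 genes were called, and without that at 0.01 µg/ml 302. Without the combination library at 1 µg/ml it was 239, and without that at 0.01 µg/ml 101. Against anti-PD1, 53 genes had a higher slope (0.341%) and 47 a lower one (0.303%), and with library totals in place of TMM 33 and 44. Against anti-LAG3, 50 were higher (0.322%) and 69 lower (0.444%). LCP2 differed from both single antibodies: its slope was 0.90 with the combination, 0.30 with anti-PD1 and 0.34 with anti-LAG3. At 1 µg/ml it stood at 118 CPM with the combination and at 48.8 and 51.4 CPM with the single antibodies. MYO7B had slopes of -0.86, -0.16 and -0.17 in the same order, and ADA -0.70, -0.22 and -0.09. LYST, a lysosomal trafficking regulator, had 9.49, 17.4 and 45.0 CPM with the combination and 12.2 and 14.7 CPM at 1 µg/ml of anti-LAG3 and anti-PD1. EGR1 had a steeper slope with the combination than with anti-PD1, by 0.49 ± 0.08 (adjusted p = 0.00153), while its difference of 0.22 ± 0.07 from anti-LAG3 was not called (adjusted p = 0.222). The counts against anti-PD1 and anti-LAG3 were 6 and 28 without the combination library at 1 µg/ml and 35 and 38 without that at 0.01 µg/ml. The first was 16 without either end of the anti-PD1 series, and the second 19 and 8 without the top and the bottom dose of anti-LAG3. The count against anti-LAG3 reached 180 and 181 when the anti-PD1 library at 0.1 or at 0.01 µg/ml was dropped. The count against anti-PD1 was 18 with the T minus B marker covariate. These comparisons share the 3 combination libraries.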

How the data were processed

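The authors deposited 1 table of raw counts for 55782 gene symbols, with a gene length column, per the file headers. Per the submitters' processing notes, the tools named were STAR 2.5.2b, Trimmomatic 0.36, Subread 1.5.2 with featureCounts, and DESeq2, with the build GRCh38. The sources used here do not give the annotation release, the strand setting or the treatment of multi-mapped reads, so near-identical, overlapping and antisense genes are uncertain. Left out were 4 count columns that belong to no sample listed here, and the authors' deposited comparison tables.

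Libraries were grouped by the treatment label, and depth was the sum of counts per library (23593973 to 36581754). Genes were kept by filterByExpr (arm as group, minimum count 10) and scaled by TMM in edgeR 4.0.16 under R 4.3.3. The quasi-likelihood F test (robust) was fitted to all 12 libraries with an intercept and a slope on log10 dose (0 at 0.1 µg/ml) for each arm, which left 4 residual degrees of freedom. Steps came from a fit with 1 mean per combination library and a line for each other arm, with 3 residual degrees of freedom. Benjamini-Hochberg adjustment covered 15535 genes, with a threshold of 0.05. DESeq2 1.42.0 and the other alternatives are in the closing section. The fits were also run on simulated counts with known slopes, drawn with the spread estimated from these data. That simulation held no error shared by a whole library, so it cannot give the error rate of the calls here.

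Genes named were LAG3, PDCD1, CD274, CD69, IL2 and IFNG, the 10 largest called rises and falls with both steps in 1 direction and a mean of at least 5 CPM, up to 3 called members of each of 32 lists in each direction (or the smallest p where none was called), and the 3 smallest p in each direction for each slope difference. Other called list members are given with them, and a few genes the rule selects are not reported here. The lists, the genes and the rule were chosen with earlier results of these data known. Promoter motifs were counted in the RefSeq table of GRCh38.p14. Listed for display were EGR1, CD69 and the named gene with the largest called fall. The RefSeq table held no entry for CD69, so its promoter is not shown.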

Additional observations from a re-analysis of the deposited data

Results flagged for a closer look

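Each result here was flagged because the slope with the combination differed from that of another arm in a test of the difference itself (edgeR, quasi-likelihood, adjusted over all genes). The values are log2 differences in slope per 10-fold dose, combination minus the other arm, for the 3 genes with the smallest p in each direction. Against isotype, EGR1 differed by 1.04, CASC15, a long intergenic RNA, by 0.86 and PRKCH, a protein kinase C, by 0.77. MYO7B differed by -0.96, ADA by -0.80 and PMEPA1 by -0.78. Against anti-PD1, GNG4, a G protein gamma subunit, differed by 1.03, LYST by 0.80 and LCP2 by 0.59. MYO7B differed by -0.70, PMEPA1 by -0.56 and ADA by -0.48. Against anti-LAG3, ENPP1 differed by 1.04, LYST by 0.96 and LCP2 by 0.56. CTSG differed by -0.76, MYO7B by -0.69 and ADA by -0.61. These 3 comparisons share the combination libraries, so the recurrence of a gene is no independent support.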

How the results depend on the processing

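The ends of the combination series set the counts. Leaving out 1 library at a time gave 73 to 826 genes with a dose slope, 62 to 123 at the low step, 106 to 177 at the high step, 34 to 955 whose slope differed from isotype, 6 to 147 from anti-PD1, 8 to 181 from anti-LAG3, and 0 to 1 whose steps differed. Without an end library of the combination (1 or 0.01 µg/ml) the slope is the remaining step, and without that at 0.1 µg/ml it spans both ends (639 slopes). The test of unequal steps could not be fitted without any of the 3. DESeq2 called 284 slopes, 24 low and 49 high steps, and 290, 58 and 57 differences from isotype, anti-PD1 and anti-LAG3. Dose itself in place of log10 dose called 338 slopes, and 49 of the 102 called genes described were then still called, without EGR1, CD69 and ADA (adjusted p = 0.29, 0.272 and 0.196). No filter on low counts gave 117 low steps and 170 and 207 differences from anti-PD1 and anti-LAG3. The T minus B marker covariate gave 0 low steps, 23 high steps and 18 differences from anti-PD1. Other scalings, the filter at 5 CPM and the length offset moved no count by over 1.5 times, nor did the GC and length offset (870 slopes), which was chosen after seeing the data. Of the 102 called genes, 80 were still called by DESeq2, 36 without the combination library at 1 µg/ml, 45 without that at 0.01 µg/ml, and 10 under every alternative run, among them ATP9A, CD226, CD6, CTSG, GNG4, HDC, LYST, NR4A3 and PMEPA1. The slope of PDCD1 turned to 0.042 on linear dose and ran from -0.18 to 0.14 with 1 library left out. That of NCAM1 turned to 0.079 and ran from -0.26 to 0.23. TNFSF10 ran from -0.18 to 1.21 and MT-ND4L from -0.23 to 0.057. Genes of a few counts, such as IL2 and IFNG, are limited by depth. No paired analysis was possible because the replicate numbers stand for doses, with 1 library per condition. Where no construction is named, the cause was not tested.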
